A study of Mus musculus with 11 samples.

Results

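The liver X receptors (LXRs) LXRα, encoded by Nr1h3, and LXRβ, encoded by Nr1h2, were followed together with 5 of their direct target genes, Abca1, Abcg1, Mylip, Srebf1 and Lpcat3, through every tissue macrophage (mac) population of the series. The genes were taken by name, not by a threshold on a measured value, and make up 7 of the 27998 genes of each count table. Single-cell RNA sequencing (10x 3′ chemistry, in which each captured mRNA molecule is counted once through its unique molecular identifier, or UMI) was performed on macs sorted from mouse brain, colon, liver, lung and spleen, with 11 libraries in all. In each of the 5 tissues 1 library came from Zeb2fl/fl mice without a CRE recombinase, referred to as WT, and 1 from mice in which a CRE recombinase deletes the floxed Zeb2 alleles in macs, referred to as Zeb2KO. Zeb2 encodes a zinc finger transcription factor. A further WT library was made from livers of Nr1h3fl/fl mice without CRE, in which the floxed LXRα alleles were therefore intact, and no library lacked either LXR.

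The labels give the genotype of every Zeb2KO library as Fcgr1-crexZeb2fl/fl, whereas in its methods the study gives Clec4f-cre as the driver in Kupffer cells (KCs) and Itgax-cre in alveolar macs (AMs), and this difference could not be resolved here. Each of these drivers also acts in some cells outside the intended population, and a Zeb2KO library can hold macs that kept an allele. The floxed allele still yields the 3′ end of the transcript after recombination, so Zeb2 counts are no check of the deletion. The mice were on a C57Bl/6 background, of both sexes and, unless the methods say otherwise, 6 to 8 weeks old, with littermates as controls. Neither the age of the sequenced mice nor the number pooled per library is given in the labels, and no mouse received a treatment.

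As background, LXRs are nuclear receptors that bind oxysterols and sterol precursors and act as heterodimers with the retinoid X receptors. Without ligand they hold corepressors at their target genes, and with ligand they recruit coactivators, so that a cell loaded with cholesterol exports it, takes up less of it and makes more unsaturated fatty acids. In macs this program handles the cholesterol of engulfed cells, and LXRα is known to be needed by marginal zone macs of the spleen, whereas LXRβ is made by most cell types.

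Barcodes were filtered on depth and mitochondrial share and clusters that met a marker rule for other cell types were taken out. A liver cluster led by Gng11, Ehd3 and Ptprb (269 cells) and a spleen cluster led by S100a8, S100a9 and Camp (89 cells) did not meet the rule and were kept, and no call of a member changed without them. This left 4038 WT KCs and 3903 Zeb2KO KCs, 3495 KCs of the Nr1h3fl/fl control, 3066 and 2896 splenic red pulp macs (SMs), 6979 and 6257 AMs, 4347 and 3863 colonic macs (CMs), and 2830 and 3243 microglia. Whole libraries held 11133411 to 47400786 UMIs over 3097 to 7703 cell barcodes, and any pair of libraries shared 14 to 76 barcodes, at most 1.45% of the smaller one. Per kept mac the median depth was lowest in WT SMs (2174.5 UMIs) and highest in WT CMs (9234 UMIs). Markers of the labelled populations were present: the summed level of the Kupffer list was 16213 UMIs per 1000000 UMIs of the library (CPM) in WT KCs and at most 920 CPM in WT macs outside the liver, and the microglia list reached 25979 CPM in WT microglia against at most 470 CPM in WT macs outside the brain. AMs carried low levels of general mac genes, with 693 CPM over the 9 genes of that list against 10881 to 36079 CPM in the other 4 WT tissues. All levels below are CPM of the kept macs of 1 library, with 95% Poisson intervals that cover counting error only, and since each tissue and genotype has 1 library, differences within a tissue carry no test. The Nr1h3fl/fl library stood apart from the other 2 liver libraries: 36.2% and 37.5% of its cells lay in 2 clusters that held 7.12% and 2.96% of the Zeb2fl/fl WT liver cells, 1 of them led by mt-Nd3 with a median of 2884 UMIs per cell, and its median mitochondrial share was 5.14% against 3.06% and 3.08%. A gene was called higher or lower in a tissue when the 2 libraries differed by at least 1 on the log2(CPM + 1) scale and 1 of them reached 20 CPM.

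Nr1h3 was the member with the widest range between tissues. It lies at chr2:91184061-91202834 on the minus strand of the mm10 assembly. In WT macs it stood at 392 CPM in KCs (interval 384 to 400), 375 CPM in SMs (362 to 389), 40.8 CPM in AMs (38.4 to 43.2), 26.7 CPM in CMs (25.2 to 28.3) and 0.324 CPM in microglia, where only 4 UMIs of 12334676 belonged to it. The Nr1h3fl/fl KCs held 476 CPM (466 to 486). KCs and SMs thus formed a high pair whose intervals overlapped, AMs and CMs an intermediate pair, and microglia lay 1209-fold below KCs, a fold that rests on those 4 UMIs. The 2 liver controls differed by 0.28 on the log2 scale, which was more than the 0.06 between WT KCs and WT SMs and far less than the 3.20 between SMs and AMs.

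Counted in cells, KCs and SMs were again highest and microglia lowest, while AMs and CMs changed places unless depth was evened out. At least 1 Nr1h3 UMI was found in 80.04% of WT KCs (exact binomial interval 78.8 to 81.3), 52.1% of WT SMs, 17.3% of WT CMs, 14.4% of WT AMs and 0.141% of WT microglia. Thinned to 2000 UMIs per cell, the shares were 52.3% in KCs, 47.6% in SMs, 7.96% in AMs, 4.24% in CMs and 0.0482% in microglia. Of the WT SMs, 1373 cells were too shallow for this thinning and were left out, against 0 to 240 cells in the other WT tissues. Other cells of the WT spleen library also held Nr1h3 UMIs, which can include free RNA in the droplets. Of 638 B cells, 10.3% held an Nr1h3 UMI at a median of 2085.5 UMIs per cell, close to the 2174.5 of the SMs, and of 92 T and NK cells 19.6% did, at a median of 2358 UMIs. The level was 48.6 CPM in the B cells, 145 CPM in the T and NK cells and 184 CPM in 156 cells of erythroid clusters, all below the 375 CPM of the SMs. Colonic fibroblasts, at 10.9 CPM, lay below the 26.7 CPM of the CMs around them.

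Nr1h2, at chr7:44549616-44553951 on the minus strand, was by contrast almost even over the tissues. WT microglia held 64.5 CPM, KCs 43.2 CPM, AMs 37.7 CPM, CMs 36.3 CPM and SMs 34.6 CPM, and the Nr1h3fl/fl KCs 37.3 CPM. The highest level was 1.86 times the lowest. The intervals of AMs and CMs and of CMs and SMs overlapped, and the difference of 0.21 between the 2 liver controls was larger than each step from KCs down to SMs.

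The share of LXR molecules that came from Nr1h3 needs no scaling between libraries and separated the populations into 3 levels. Nr1h3 provided 90.1% of the LXR UMIs in WT KCs (89.5 to 90.6), 91.6% in WT SMs and 92.7% in the Nr1h3fl/fl KCs. It provided 51.9% in WT AMs and 42.4% in WT CMs, where both receptors were near equal. In WT microglia it provided 0.501% (0.137 to 1.28), so that nearly every LXR molecule detected there was LXRβ. Since each UMI is 1 captured 3′ end, the counts do not scale with transcript length, but capture can differ between genes, and the shares are best compared between libraries.

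**Figure D1:**
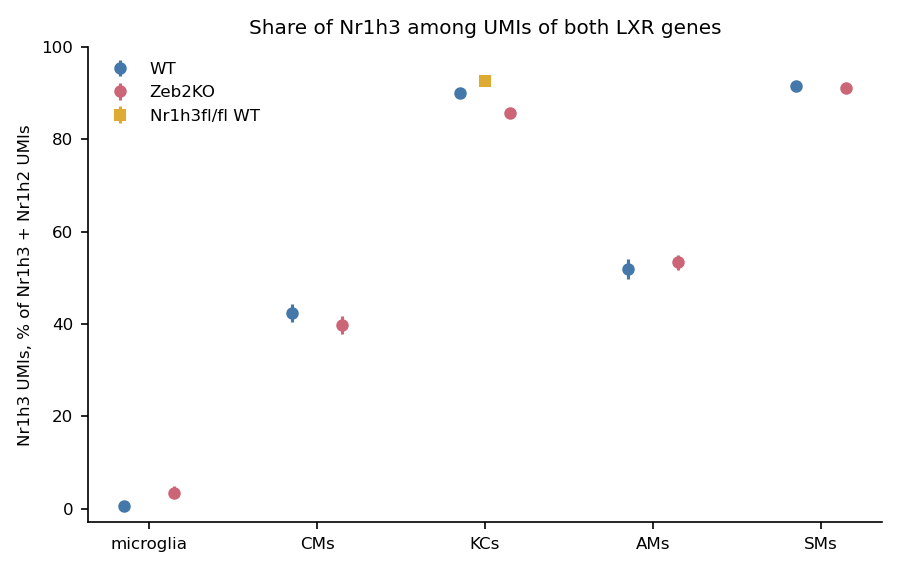
Nr1h3 as a percentage of the Nr1h3 and Nr1h2 UMIs of each library, by tissue, for the WT, Zeb2KO and Nr1h3fl/fl control libraries, with exact 95% binomial intervals as bars. KCs and SMs lie at 85.7 to 92.7%, AMs and CMs at 39.9 to 53.3% and microglia at 0.501 and 3.42%.

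In the Zeb2KO libraries Nr1h3 was highest in SMs, followed by KCs, AMs, CMs and microglia, so that KCs and SMs changed places. Nr1h3 stood at 270 CPM in Zeb2KO KCs (264 to 277), below the 392 and 476 CPM of both liver controls, and at 348 CPM in Zeb2KO SMs, 51.1 CPM in Zeb2KO AMs, 27.0 CPM in Zeb2KO CMs and 1.89 CPM in Zeb2KO microglia, where 32 UMIs were found. The log2 ratio of Zeb2KO to WT was −0.53 in KCs (counting interval −0.58 to −0.49), −0.11 in SMs, 0.32 in AMs and 0.02 in CMs, and none of these 4 was called. Against the Nr1h3fl/fl control the KC ratio was −0.81. In microglia neither library reached 20 CPM and the gene was not considered. The difference in KCs exceeded that between the 2 liver controls (0.28) in both comparisons, and 4.95% of the genes considered had a ratio at or below it.

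In cells, 67.5% of Zeb2KO KCs held an Nr1h3 UMI against 80.04% of WT and 83.2% of Nr1h3fl/fl KCs. After thinning to 2000 UMIs the shares were 38.1%, 52.3% and 59.9%, with 24, 140 and 237 cells too shallow to be used. Zeb2KO KCs were the deepest of the 3 libraries, with a median of 5869 UMIs per cell against 5367 and 4502. The summed Kupffer marker list was lower in the same library, at 16213 CPM in WT, 12909 CPM in Nr1h3fl/fl and 7579 CPM in Zeb2KO KCs, with all 6 genes detected in each. A cluster led by Mmp12, Cx3cr1, Cd207 and Ccr2 held 1.18% of WT, 0.706% of Nr1h3fl/fl and 10.05% of Zeb2KO liver cells. Proliferating cells made up 4.53%, 6.32% and 8.84% of the KCs in the same order. No member was called in KCs against either control with the proliferating clusters left out. The part of these differences in that of Nr1h3 was otherwise not tested. A lower level over all KCs can come from fewer cells with the transcript or from fewer transcripts per cell, and these cannot be told apart in the sum over cells.

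Nr1h2 was within 0.27 on the log2 scale of its WT level in each tissue, at 53.5 CPM in Zeb2KO microglia, 45.2 CPM in KCs, 44.7 CPM in AMs, 40.7 CPM in CMs and 33.5 CPM in SMs. From WT to Zeb2KO the log2 ratio of Nr1h3 to Nr1h2 differed by −0.60 in KCs, −0.06 in SMs, 0.08 in AMs, −0.15 in CMs and 2.81 in microglia. Over the 5 tissues the mean was 0.42 ± 1.36 (SD, n = 5), higher in 2 of 5 tissues, with p = 0.875 in a two-sided exact sign-flip permutation test whose smallest possible p is 0.0625. Microglia alone set the sign of this mean, which was −0.18 without them.

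The 5 targets act in different branches of the program. Abca1 and Abcg1 encode transporters that pass cholesterol to apolipoprotein A1 and to high density lipoprotein, Mylip encodes the ubiquitin ligase IDOL, which limits lipoprotein uptake, Srebf1 encodes SREBP1, the transcription factor of fatty acid synthesis, and Lpcat3 encodes an acyltransferase that places polyunsaturated chains in phospholipids. LXR and RXR bind together at direct repeats of a hexamer spaced by 4 bases, of which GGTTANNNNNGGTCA is the core as searched here on both strands: the half-sites GGTTA and GGTCA with 5 free bases between them. Among 32851 RefSeq windows of GRCm38.p6 that run from 250 bases before to 50 bases after a transcription start, 16 held this string (0.0487%), in 13 genes. A window was at hand for 6 of the 7 members, 9 windows in all, and 2 of these held the string, 1 of Abca1 and 1 of the 3 of Srebf1. The 250 bases before these 2 starts are shown because they carry the element at the targets that the results below compare, with the match in capitals as it reads on the strand of the gene:
Abca1, chr4:53159896-53160145, minus strand: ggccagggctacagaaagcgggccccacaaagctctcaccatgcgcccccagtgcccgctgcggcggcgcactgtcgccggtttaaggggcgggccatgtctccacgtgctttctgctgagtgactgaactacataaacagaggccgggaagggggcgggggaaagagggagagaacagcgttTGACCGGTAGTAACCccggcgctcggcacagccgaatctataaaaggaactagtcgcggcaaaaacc
Srebf1, chr11:60210472-60210721, minus strand: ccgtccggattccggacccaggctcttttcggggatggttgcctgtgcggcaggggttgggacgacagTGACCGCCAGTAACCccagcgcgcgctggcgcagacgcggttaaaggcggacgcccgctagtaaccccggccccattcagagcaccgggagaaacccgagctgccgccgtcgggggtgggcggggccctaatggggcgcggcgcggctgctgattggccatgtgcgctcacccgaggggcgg
The match lies 67 to 53 bases before the start of Abca1, at chr4:53159948-53159962, and 182 to 168 bases before this start of Srebf1, at chr11:60210639-60210653. Both run in reverse on the strand of the gene and read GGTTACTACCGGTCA and GGTTACTGGCGGTCA on the other strand, and the bases between the half-sites differ in part. Fasn, a further target in lipid synthesis, held the same 15 bases as Abca1 at chr11:120824758-120824772. Each half-site alone was common, in 26.4% and 40.5% of windows, and a window without the full string says only that these letters are not in it.

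The targets did not share 1 order of levels over the WT tissues. Abca1 (gene locus chr4:53030787-53159895) was highest in WT SMs with 227 CPM, followed by KCs with 138 CPM, microglia with 89.4 CPM, CMs with 86.0 CPM and AMs with 58.6 CPM, and the Nr1h3fl/fl KCs held 237 CPM. Microglia and CMs had overlapping intervals. The 2 liver controls differed by 0.78 on the log2 scale in Abca1, the largest such difference of any member, and steps smaller than this between tissues cannot be set above the spread between control libraries. Among the 5397 genes considered between these controls that had a transcript length (97.3% of those considered), the log2 ratio went with transcript length (Spearman rho 0.54 across genes, which are not independent replicates). Abca1 has the longest transcript of the members with 10262 bases, and with the median ratio of genes of like length taken off, its difference between the controls was 0.42.

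Abcg1 (chr17:31057675-31117988, plus strand) was most abundant in WT AMs, at 1486 CPM, with 298 CPM in SMs, 117 CPM in KCs, 57.2 CPM in microglia and 11.6 CPM in CMs. The Nr1h3fl/fl KCs held 154 CPM. No neighbours in this order had overlapping intervals, and 97.5% of WT AMs held at least 1 Abcg1 UMI. AMs thus had the highest Abcg1 and, at 58.6 CPM, the lowest Abca1 of the 5 WT populations.

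Mylip (chr13:45389742-45412022, plus strand) and Lpcat3 (chr6:124663027-124704418, plus strand) were highest in microglia, the population almost without Nr1h3. Mylip stood at 224 CPM in WT microglia, 96.1 CPM in SMs, 69.6 CPM in AMs, 51.9 CPM in KCs (54.7 CPM in the Nr1h3fl/fl control) and 37.6 CPM in CMs. Lpcat3 stood at 183 CPM in WT microglia, 74.4 CPM in AMs, 35.3 CPM in SMs, 26.4 CPM in KCs (23.7 CPM in the Nr1h3fl/fl control) and 23.2 CPM in CMs. The step from microglia to the next tissue was larger than the difference between the liver controls in both genes (0.08 for Mylip and 0.16 for Lpcat3). Exons of Lpcat3 overlap those of Emg1 on the other strand, which reached up to 124.5 CPM, and the sources used here do not state whether counting used strand.

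Srebf1 (chr11:60199089-60222581, minus strand) was low throughout, with 37.4 CPM in WT SMs, 31.8 CPM in AMs, 17.3 CPM in KCs (16.9 CPM in the Nr1h3fl/fl control), 15.3 CPM in CMs and 11.7 CPM in microglia. The intervals of SMs and AMs and those of KCs and CMs overlapped. Its exons overlap those of Rai1 on the other strand, which had at most 19.7 CPM in any library.

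**Figure D2:**
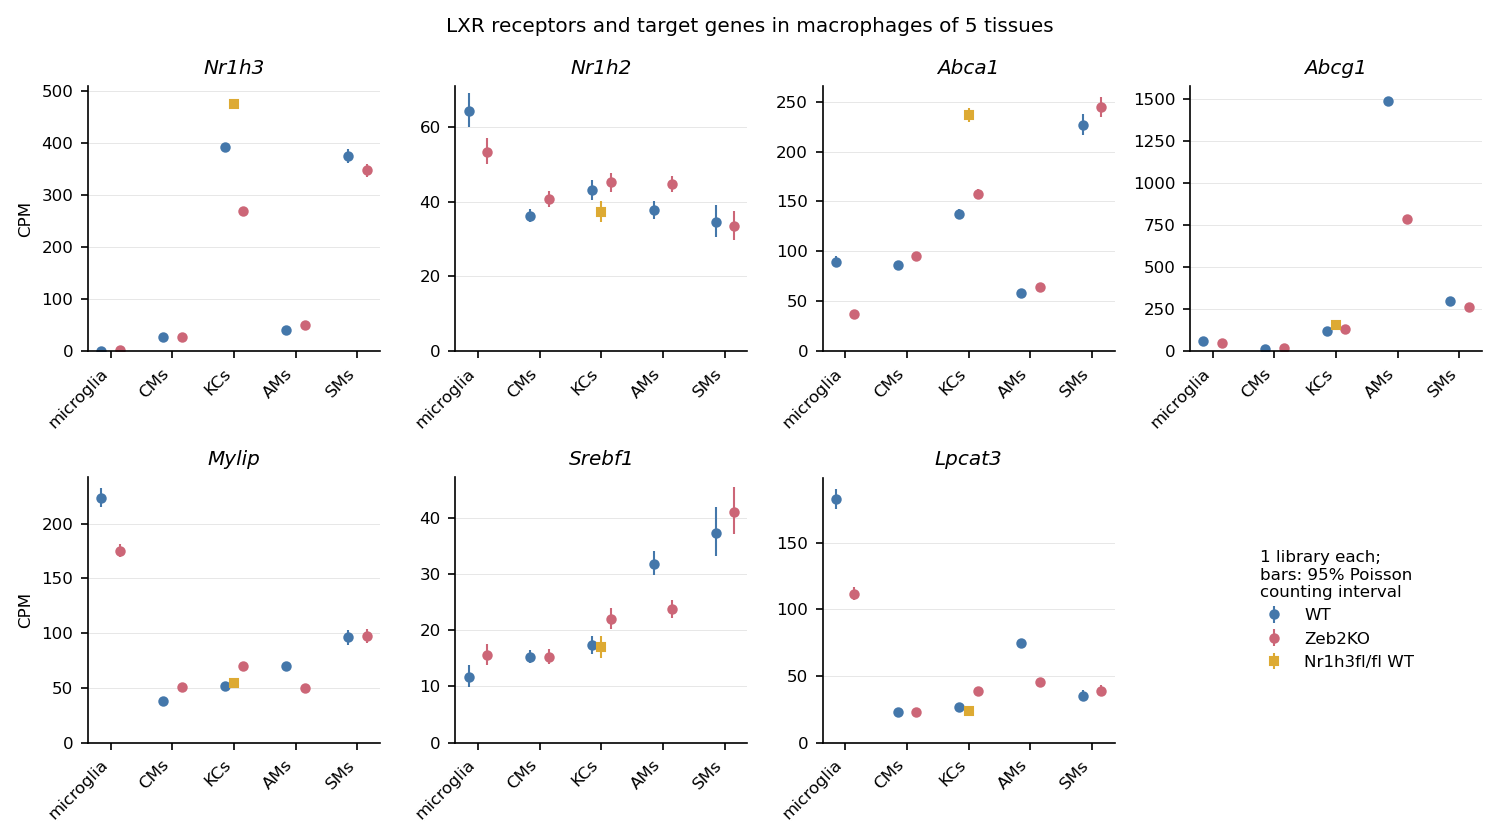
Level of the 7 members in CPM on linear axes, 1 panel per gene, by tissue, for WT, Zeb2KO and the Nr1h3fl/fl control liver library, with 95% Poisson intervals. Nr1h3 is high in liver and spleen, Abcg1 in lung, and Mylip and Lpcat3 in brain, and the 2 receptors differ in how far the tissues lie apart.

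Setting Zeb2KO against WT within each tissue, 1 target was called in 1 tissue: Abca1 was lower in Zeb2KO microglia. It stood at 89.4 CPM in WT microglia (84.2 to 94.9) and 37.3 CPM in Zeb2KO microglia (34.5 to 40.4), a log2 ratio of −1.24 (counting interval −1.40 to −1.12) that stayed between −1.25 and −1.15 under every alternative run. This was 1 of the 5 members considered in brain, where 8.34% of all genes considered were called in either direction and 4.07% were called lower. An Abca1 UMI was found in 30% of WT and 16.2% of Zeb2KO microglia, and in 15.7% and 6.85% of them at 2000 UMIs per cell. In the other 4 tissues the Abca1 ratio was between 0.11 and 0.19, and the WT and Zeb2KO levels were 86.0 and 95.5 CPM in CMs, 138 and 157 CPM in KCs, 58.6 and 64.7 CPM in AMs and 227 and 244 CPM in SMs.

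The other members in microglia were not called. Lpcat3 stood at 183 CPM in WT and 112 CPM in Zeb2KO, a log2 ratio of −0.70. Mylip stood at 224 and 175 CPM (−0.35), Abcg1 at 57.2 and 49.9 CPM (−0.19) and Nr1h2 at 64.5 and 53.5 CPM (−0.27). All 5 members considered in brain thus had ratios below 0, and their median was −0.35 against −0.09 over all genes considered. Marker lists differed as well. The summed microglia list was at 25979 CPM in WT and 15902 CPM in Zeb2KO microglia with all 6 genes detected in both, and the erythroid list at 610 and 40.3 CPM. Of the genes of antigen presentation, Cd74 was at 193 and 6915 CPM and H2-Aa at 28.9 and 972 CPM. The part of these differences in the Abca1 call and in the other ratios was not tested.

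In AMs no member of the 7 considered was called, against 11.7% of all genes considered. Abcg1 came nearest, with 1486 CPM in WT and 786 CPM in Zeb2KO AMs, a log2 ratio of −0.92 (counting interval −0.94 to −0.90). Lpcat3 stood at 74.4 and 45.1 CPM (−0.71), Mylip at 69.6 and 49.7 CPM (−0.48) and Srebf1 at 31.8 and 23.8 CPM (−0.41). The median over all genes considered was itself −0.31 here, and the scaling matters. With TMM scaling, which sets that median to about 0, the ratios were −0.63 for Abcg1, −0.43 for Lpcat3, −0.20 for Mylip and −0.13 for Srebf1. They were 0.60 for Nr1h3, 0.52 for Nr1h2 and 0.42 for Abca1, which was at 0.14 in CPM. With the median of genes of like length taken off, Abcg1 was at −0.44 and Srebf1 turned to 0.10. The median of the members was −0.41 in CPM. The split of all called genes moved with the scaling from 253 higher and 428 lower in CPM to 367 higher and 182 lower with TMM.

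In Zeb2KO AMs the summed neutrophil list stood at 23607 CPM against 44.6 CPM in WT AMs, which lay almost wholly in S100a8 (14190 CPM) and S100a9 (9358 CPM). Of the other 5 genes of that list, Camp and Ngp were at 0, Retnlg was at 0.13 CPM and Ly6g at 0.32 CPM, while Mmp8 was at 58.2 CPM against 21.7 CPM in WT AMs. The monocyte list stood at 20700 against 5767 CPM, almost wholly through Chil3, a gene that AMs also express. The part of these genes in the scaling of AMs was not tested.

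In KCs no member of the 7 considered was called against WT, where 4.54% of all genes considered were, and none against the Nr1h3fl/fl control, where 8.07% were. The 5 targets had ratios above 0 against WT while Nr1h3 was below: Lpcat3 stood at 26.4 CPM in WT and 38.7 CPM in Zeb2KO KCs (0.53), Mylip at 51.9 and 70.3 CPM (0.43), Srebf1 at 17.3 and 22.0 CPM (0.33), Abca1 at 138 and 157 CPM (0.19) and Abcg1 at 117 and 129 CPM (0.14). Against the Nr1h3fl/fl control, with its 237 CPM of Abca1 and 154 CPM of Abcg1, these 2 transporters turned to −0.59 and −0.25 (−0.18 and 0.11 with the length median taken off), while Lpcat3, Mylip and Srebf1 were at 0.69, 0.36 and 0.36. In CPM the direction for the transporters therefore depended on the control chosen, and that of the other 3 targets did not. With the length median taken off, Abcg1 was above 0 against WT too (0.19), and the dependence remained for Abca1 (0.23 against WT). The median of the members was 0.19 against WT, where that of all genes considered was 0.02, and 0.27 against the Nr1h3fl/fl control, where it was −0.05. Between the 2 controls, 0 of 6 members considered and 1.35% of all genes considered were called.

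No member was called in SMs or CMs. In SMs the 7 ratios ran from −0.19 for Abcg1 (298 CPM in WT and 262 CPM in Zeb2KO) to 0.14 for Lpcat3 (35.3 and 39.0 CPM), with 0 of 7 considered called against 3.41% of all genes considered. In CMs the 5 members considered ran from −0.03 for Lpcat3 (23.2 and 22.6 CPM) to 0.42 for Mylip (37.6 and 50.5 CPM), with 0 called against 1.56% of all genes considered. Abcg1 in CMs, at 11.6 CPM in WT and 19.4 CPM in Zeb2KO (0.69, counting interval 0.57 to 0.90), and Srebf1, at 15.3 CPM in both, were under the minimum of 20 CPM. The median of the members was 0.01 in SMs and 0.15 in CMs, against −0.02 and 0.05 over all genes considered.

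**Figure D3:**
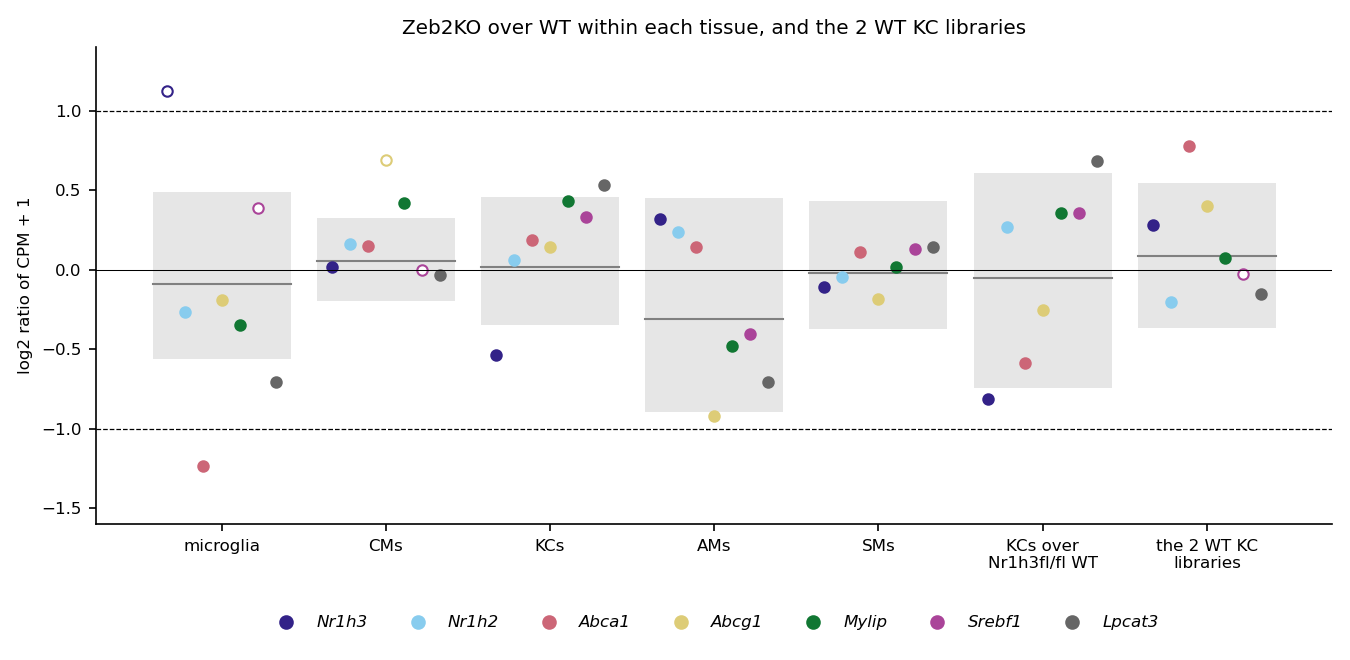
Log2 ratio of Zeb2KO to WT on the log2(CPM + 1) scale for the 7 members in each tissue, for Zeb2KO KCs over the Nr1h3fl/fl control and for that control over WT KCs, with 1 point per member, open where neither library reached 20 CPM, dashed lines at −1 and 1, and the median (line) and the middle 80% (grey) of all genes considered. Abca1 in microglia, at −1.24, is the only filled point past a dashed line, and Abcg1 in AMs follows at −0.92.

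To ask whether any member shifted in the same direction in the tissues, Zeb2KO was compared with WT over the 10 libraries with tissue as a block, so that the 5 tissues served as replicates. Of 14033 genes tested with edgeR's quasi-likelihood test, 0% passed an adjusted p of 0.05 (Benjamini-Hochberg), 0 higher and 0 lower, while 1607 had an unadjusted p under 0.05. DESeq2 on the same libraries called 378 of 12888 genes (2.93%), 257 higher and 121 lower. No member was called by either tool. The edgeR log2 fold changes were 0.21 (SE 0.33, adjusted p = 0.830) for Nr1h3, 0.09 (SE 0.12, adjusted p = 0.787) for Nr1h2 and −0.07 (SE 0.23, adjusted p = 0.933) for Abca1. The other 4 targets lay between −0.10 for Lpcat3 and 0.15 for Srebf1, with adjusted p from 0.645 to 0.964 in edgeR. An SE of 0.12 to 0.33 leaves room for shifts larger than the SE itself in either direction, and these p-values do not show that the levels were equal.

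A Zeb2KO library holds macs in clusters that WT macs hardly enter and macs in clusters shared, evenly or not, with WT. Clusters were built within a tissue without the members or any listed gene, and those with at least 9 times the share of the Zeb2KO library that they had of WT are here called the clusters apart. They held 94.9% of Zeb2KO microglia, 23.5% of CMs, 61.6% of KCs, 89.9% of AMs and 73.8% of SMs. SMs and CMs were sorted as SiglecF-negative, and the study reports higher Siglecf in SMs and CMs without Zeb2. The part of this gate in these shares, and in the levels of the Zeb2KO libraries, was not tested. Values of the clusters apart are a description of the cells clustered and carry no test.

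In KCs Nr1h3, Mylip, Abca1 and Abcg1 differed between these cells beyond counting error. Nr1h3 stood at 235 CPM in the 2404 Zeb2KO KCs of the clusters apart (227 to 243), 318 CPM in the 1499 Zeb2KO KCs of other clusters (307 to 329) and 392 CPM in WT. Among the targets, Mylip was at 84.4, 51.4 and 51.9 CPM, Abca1 was at 180, 127 and 138 CPM, Abcg1 was at 145, 108 and 117 CPM and Srebf1 was at 24.1, 19.1 and 17.3 CPM in the same 3 sets of cells. Lpcat3 was at 39.8, 37.2 and 26.4 CPM. The intervals of the 2 Zeb2KO sets overlapped for Srebf1 (21.7 to 26.8 and 16.6 to 21.9) and Lpcat3 (36.6 to 43.2 and 33.6 to 40.9). Of these 3 sets, the cells of the clusters apart had the lowest Nr1h3 and the highest Mylip, Abca1 and Abcg1. The Nr1h3fl/fl KCs, at 476 CPM of Nr1h3 and 54.7 CPM of Mylip, left this order as it was for these genes, but their 237 CPM of Abca1 and 154 CPM of Abcg1 lay above the clusters apart. Zeb2KO KCs of other clusters were close to the Zeb2fl/fl WT library in Mylip, Abca1 and Abcg1. These other clusters were not shared evenly with WT. The largest of them in Zeb2KO was led by Mmp12, Cx3cr1, Cd207 and Ccr2. It held 1.18% of WT and 10.05% of Zeb2KO liver cells, just short of the rule for clusters apart. Its part in the values of the other clusters was not tested. Split by a UMI of Siglecf, the leading gene of the largest cluster apart, the 1731 Zeb2KO KCs with it held 232 CPM of Nr1h3 and the 2172 without it 304 CPM.

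A small cluster among the sorted liver cells, led by Slpi, Fn1, Saa3, Alox15 and Prg4 and with no gene of the Kupffer list among its leading 10, differed from the KC clusters in both genotypes. Its Nr1h3 level was 43.9 CPM over 84 WT cells (32.2 to 58.6) and 55.1 CPM over 87 Zeb2KO cells (41.4 to 71.8), whereas the other WT liver clusters kept, with at least 50 cells, held 339 to 436 CPM. The level in these cells was close to the 56.2 CPM of the 66 B cells of the WT liver library. Abca1 was also low there, at 66.8 CPM in WT and 67.3 CPM in Zeb2KO.

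**Figure D4:**
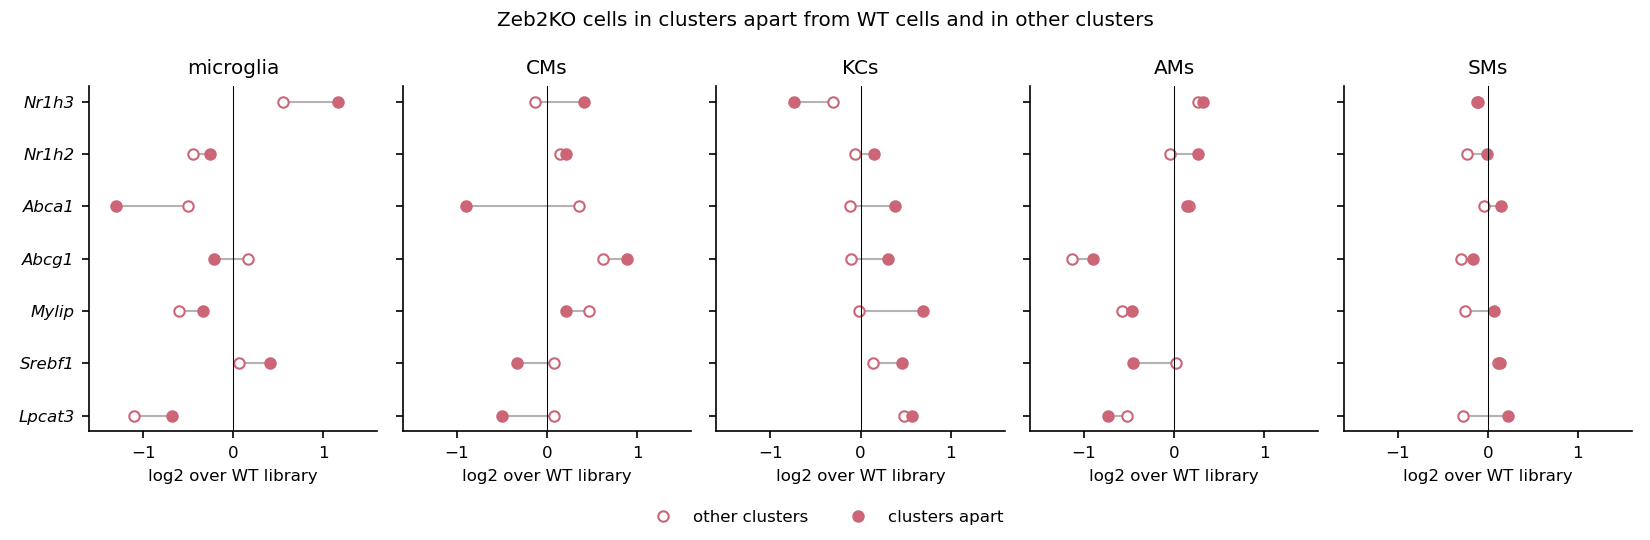
Log2 ratio of the level in Zeb2KO macs to the whole WT library for the 7 members, 1 panel per tissue, in the clusters apart (filled) and in the other clusters (open), joined by a line. In KCs Nr1h3 lies at −0.74 in the clusters apart and −0.30 in the others while Mylip lies at 0.69 and −0.02, and in CMs Abca1 lies at −0.90 and 0.36.

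In microglia Abca1 and Lpcat3, and in AMs Abcg1 and Srebf1, differed between these cells beyond counting error. Abca1 in microglia stood at 35.6 CPM in the clusters apart (32.7 to 38.7) and 63.0 CPM in the 166 Zeb2KO microglia of other clusters (48.8 to 80), against 89.4 CPM in WT. Lpcat3 did not follow this order, at 113 CPM (108 to 119), 84.6 CPM (68.0 to 104) and 183 CPM. Among the other clusters, that led by Spp1 and Lgals3 held 4.69% of Zeb2KO and 2.44% of WT microglia. The clusters with 51.3% and 45.7% of WT microglia held 0.0308% and 0.401% of Zeb2KO microglia. The Zeb2KO microglia of other clusters were thus mostly those of the cluster led by Spp1. In AMs Abcg1 was below WT in both Zeb2KO sets, at 797 CPM in the clusters apart and 679 CPM in the others against 1486 CPM in WT. In the lung cluster apart led by C1qa and Cd74 it stood at 320 CPM, and in that led by S100a9 at 760 CPM. Srebf1 was at 22.8 CPM in the clusters apart (21.3 to 24.5), 32.4 CPM in the others (26.7 to 38.8) and 31.8 CPM in WT. Among the other clusters, a proliferating one and one led by Mcm3 held 4.78% and 1.32% of Zeb2KO lung cells. The clusters with 58.7%, 18.1% and 10.2% of WT lung cells held 1.15%, 0.542% and 0.239% of them. In SMs Nr1h3 was at 349, 345 and 375 CPM. Lpcat3 was at 41.5 CPM in the clusters apart (37.0 to 46.4), 28.9 CPM in Zeb2KO SMs of other clusters (21.7 to 37.8) and 35.3 CPM in WT, and Mylip at 101 CPM (94.0 to 109), 80.7 CPM (68.2 to 94.8) and 96.1 CPM, with intervals of the Zeb2KO sets that overlapped in both genes.

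CMs showed the clearest split of the members, and it was present in WT. Abca1 stood at 128 to 137 CPM in 3 WT clusters, led by Ccl8, Stab1 and Pf4, by Lyve1 and by Ccl2 and Egr1, with Nr1h3 at 10.9 to 16.1 CPM. In 3 further WT clusters, led by Apol7c and Acp5, by H2-M2 and Cxcl1 and by Ccr2 and Ear2, Abca1 was at 37.5 to 58.9 CPM and Nr1h3 at 29.7 to 37.1 CPM. Among these clusters, grouped here by their Abca1 levels, those with more Abca1 had less Nr1h3, in intervals that did not overlap between the 2 sets of 3. Further WT clusters were left out of both sets, so this is a description of the sets chosen. In the Zeb2KO library the first 3 clusters held 148 to 161 CPM of Abca1 and 13.9 to 18.3 CPM of Nr1h3. Of the further 3, that led by Apol7c held 55.5 and 37.2 CPM there and that led by H2-M2 64.3 and 19.6 CPM, the latter with a Nr1h3 interval that reached into the first set, and the third had fewer than 50 cells. Clusters low in Abca1 were not all high in Nr1h3, and Nr1h3 was highest in a cluster led by Ifit1 (71.2 CPM over 50 WT cells) and in one led by Cxcl13, Clec4d and Marco (55.0 CPM in WT and 50.1 CPM in Zeb2KO). The largest colonic cluster apart, led by Ifitm1, Ltb and Ms4a1, joined the low side in Abca1 with 41.0 CPM and held 39.4 CPM of Nr1h3, so that the near-equal whole-library levels of Abca1 (86.0 and 95.5 CPM) came from Zeb2KO cells at 45.8 CPM in the clusters apart and 111 CPM in the others.

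**Figure D5:**
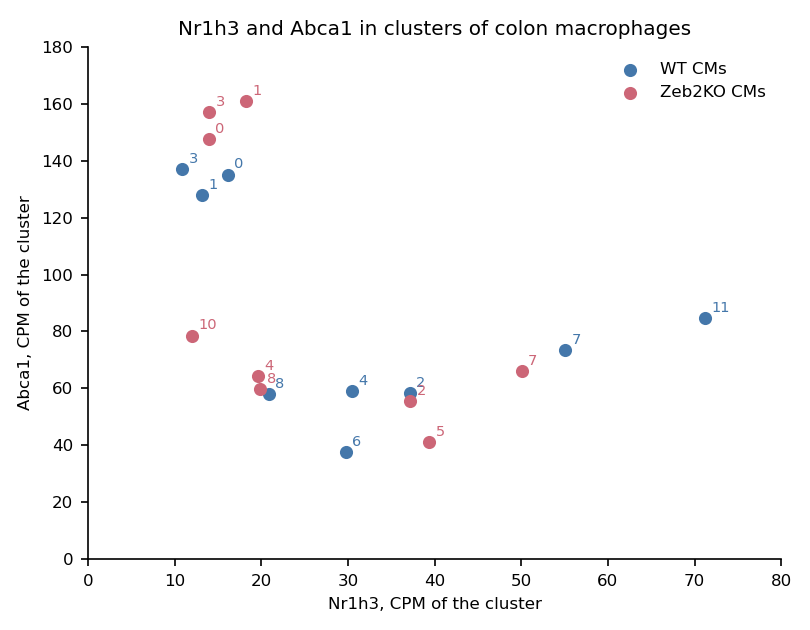
Abca1 against Nr1h3, both in CPM, for each cluster of colonic macs with at least 50 cells, in WT and in Zeb2KO, with 1 point per cluster and library and the number of the cluster beside it. Clusters 0, 1 and 3 have 128 to 161 CPM of Abca1 and at most 18.3 CPM of Nr1h3, and every other point lies below 85 CPM of Abca1.

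Other genes of the pathway were taken as lists. Of 16 further LXR targets, 2 of 10 considered were called in KCs, 3 of 10 in SMs, 4 of 9 in AMs, 1 of 7 in CMs and 0 of 5 in microglia, against 4.54%, 3.41%, 11.7%, 1.56% and 8.34% of all genes considered in these tissues. Of the genes called in at least 2 tissues, Apoc1 and Lpl were called in both directions and Scd1 was called higher. Apoc1, an apolipoprotein of lipoprotein particles, was at 5766 CPM in WT, 5128 CPM in Nr1h3fl/fl and 1256 CPM in Zeb2KO KCs (−2.20 against WT), at 274 and 86.3 CPM in SMs (−1.65) and at 26.5 and 135 CPM in AMs (2.31). Lpl, the lipoprotein lipase, was at 398 and 1229 CPM in KCs (1.63), with 678 CPM in the Nr1h3fl/fl control, against which it was not called (0.86), at 342 and 781 CPM in SMs (1.19) and at 40.7 and 16.3 CPM in CMs (−1.27). Scd1, a desaturase that makes monounsaturated fatty acids, was at 6.08 and 122 CPM in AMs (4.11) and 29.3 and 64.6 CPM in SMs (1.11).

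Apoe, which carries exported cholesterol, was called in AMs, where it stood at 13.8 CPM in WT and 1552 CPM in Zeb2KO (6.71), and 3 further listed targets, Apoc1, Scd1 and Arl4c, were called higher with it. Genes of the mac and CM marker lists differed between the same libraries, with C1qa at 0.0728 and 60.5 CPM, C1qb at 0.146 and 39.7 CPM and Cd74 at 83.0 and 524 CPM, and the lung cluster led by C1qa and Cd74 held 0.214% of WT and 3.601% of Zeb2KO lung cells. Their part in the difference of Apoe was not tested. In KCs Apoe was at 26838 CPM in WT, 25588 CPM in Zeb2KO and 13055 CPM in the Nr1h3fl/fl control, so that the 2 controls differed by more than the call threshold (−1.04). Cd5l, a secreted protein of KCs, was at 5233, 2888 and 4024 CPM in the same order (−0.86 for Zeb2KO against WT). In AMs these 4 called targets had ratios above 0 while that of Abcg1 was −0.92. The further targets considered there and not called were on both sides of 0 in CPM. Mertk was at −0.87, Lpl at −0.71, Pltp at −0.66, Scd2 at −0.01 and Smpdl3a at 0.54.

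None of the 16 genes of the list of retinoid X receptors and coregulators was called in any comparison, with 11 to 15 considered in each, where 1.35% to 11.7% of all genes considered were called, so that a count of 0 does not set the list apart. Rxra was at 146 CPM in WT, 112 CPM in Zeb2KO and 210 CPM in Nr1h3fl/fl KCs, the same order as Nr1h3. In microglia it was at 9.65 CPM in WT and 4.67 CPM in Zeb2KO, too low to be considered. In AMs it was at 93.3 and 99.7 CPM, in SMs at 178 and 165 CPM and in CMs at 22.4 and 25.5 CPM. Rxrb was higher than Rxra in microglia (46.2 CPM in WT and 43.8 CPM in Zeb2KO) and in CMs (24.8 and 28.5 CPM). It was lower than Rxra in KCs, AMs and SMs. The corepressor Ncor1 was between 77.0 and 198 CPM in every library with ratios of −0.16 to 0.05 against WT, and the coactivator Ncoa3 had ratios of −0.20 to 0.19 against WT. Against the Nr1h3fl/fl control Ncoa3 was at −0.75 in KCs, and between the 2 controls at 0.55.

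Of the 7 enzymes that make or clear oxysterols, 1 was considered in each tissue. Ch25h, which makes 25-hydroxycholesterol, was at 69.9 CPM in WT and 19.9 CPM in Zeb2KO AMs (−1.76), and Cyp27a1, which makes 27-hydroxycholesterol, at 32.1 and 11.6 CPM in microglia (−1.39). Both were called lower, 1 of 1 considered in each, where 11.7% of all genes considered were called in AMs and 8.34% in microglia. Cyp27a1 was not called in CMs (44.7 and 30 CPM), KCs (37.5 and 36.6 CPM) or SMs (20.002 and 17.1 CPM).

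Genes of the SREBP pathway, whose factor SREBP1 is encoded by Srebf1, were followed beside it. Hmgcs1, an enzyme of cholesterol synthesis, was called lower in AMs (73.9 CPM in WT and 34.0 CPM in Zeb2KO, −1.10) and in Zeb2KO KCs against the Nr1h3fl/fl control (24.9 and 11.8 CPM), but not against WT KCs, which held 12.1 CPM. With TMM factors, applied to these lists after the data were seen, neither was called (−0.82 in AMs and −0.95 in KCs). Lrp8, a lipoprotein receptor, was called higher in SMs (14.1 and 39.6 CPM, 1.43). Insig1 and Insig2, which retain SREBPs in the endoplasmic reticulum, were not called in any comparison, with Insig1 at 84.0 and 59.5 CPM in SMs and 33.8 and 17.9 CPM in AMs.

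For each member the genes most like it over the 11 libraries were found by Pearson's r of log2(CPM + 1) among 8023 genes that reached 20 CPM in at least 1 library, a description over libraries that share tissues and depth. Nr1h3 was most like Clec12a (r = 0.988), Crip2 (0.974) and Sdc3 (0.974), and Abcg1 most like Il18 (0.986), Stk38 (0.977) and Wrnip1 (0.968). Mylip was nearest to Rbm18 (0.978), Mynn (0.973) and Tmem185b (0.972), and Lpcat3 to Nit1 (0.986), Ubac1 (0.985) and Cnppd1 (0.974). For the other 3 members the nearest genes were Yipf4 (0.980), Jagn1 (0.964) and Nkap (0.955) for Nr1h2, Rapgef2 (0.953), Ptprm (0.951) and Tbc1d2b (0.949) for Abca1, and Gm5611 (0.970), Tomm70a (0.958) and Trim37 (0.957) for Srebf1. No member was among the 3 genes most like another. Between members, r was 0.86 for Mylip with Lpcat3 and 0.78 for Nr1h3 with Abca1, and −0.75 for Nr1h3 with Nr1h2 and with Lpcat3, all of which rest mostly on the differences between tissues.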

How the data were processed

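Macs were sorted as Clec4F+CD64+F4/80+ KCs, SiglecF+CD11c+ AMs, CD45int microglia and Ly6C-Ly6G-SiglecF-CD64+F4/80+ SMs and CMs. Cells with SiglecF on their surface were thus left out of SMs and CMs only. The authors aligned reads to mm10 with Cell Ranger and deposited raw UMI counts per gene and barcode, unnormalized and with no barcode-to-mouse map. KCs and AMs were sequenced on another instrument than the other macs, which cannot be told apart from tissue. The strand setting is not given in the sources used here.

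From these counts, barcodes beyond 3 median absolute deviations in UMIs, genes or mitochondrial share were removed. Cells were clustered within tissue (2000 variable genes, 30 components, Leiden resolution 0.8) without members, listed genes or sex-linked genes. Clusters of other cell types (at least 3 markers in 20% of cells, mean log2 fold of the list at least 2, or 1 with markers among the leading genes, mac genes below average, under 25% of a library) were left out. No doublet caller was run. Cells of a library were summed, and a floor of 20 CPM and pseudocount of 1 CPM were used. The shift common to tissues was tested with edgeR 4.0.16 (quasi-likelihood) and DESeq2 1.42.0 in R 4.3.3. Known changes in simulated counts were recovered beforehand. The settings and recovery rate of that simulation are not given here. It therefore does not show which shifts the tests could detect in these libraries. Positions are of GENCODE in mm10, and upstream sequences are RefSeq, GRCm38.p6.

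Named genes were all 7 members, listed genes called in at least 2 tissues or among the 3 most abundant of their list, and the 3 genes most like each member. Others called (Arl4c, Lrp8) and not called (Rxrb, Mertk, Pltp, Scd2, Smpdl3a) were named after their values were seen, as were leading genes of clusters. Some listed genes are not reported here. Members and lists were chosen with earlier results of these data known. P-values measure the spread between tissues. Alternatives were all barcodes, TMM, length correction, other pseudocounts and floors, proliferating clusters left out, the Nr1h3fl/fl control, no tissue block and leaving out each tissue.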

Additional observations from a re-analysis of the deposited data

Results flagged for a closer look

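Of 8 quantities examined over the 5 tissues (the log2 ratio of Zeb2KO to WT for each of the 7 members and for Nr1h3 over Nr1h2), 2 had 1 tissue far from the other 4 by Dixon's test, and chance marks about 1 in 20 such groups. Abca1 was at −1.24 in microglia, with the other 4 tissues between 0.11 and 0.19 and a gap of 0.944 of the whole range, above the critical value of 0.71. These are values of whole libraries, which differ in their share of clusters apart. Within the clusters apart Abca1 was also below WT in CMs (45.8 against 86.0 CPM, −0.90). There it was at −1.30 in microglia, 0.38 in KCs, 0.14 in AMs and 0.14 in SMs. Nr1h3 over Nr1h2 was at 2.81 in microglia, with the other 4 tissues between −0.60 and 0.08 and a gap of 0.80 of the range. With the Nr1h3fl/fl library as the liver control, chosen after the data were seen, the Abca1 value of KCs was −0.59 and the gap 0.469, the KC value of Nr1h3 over Nr1h2 was −1.09 and the gap 0.6998, and 0 of the 8 quantities passed the critical value. The value of 2.81 rests on 4 Nr1h3 UMIs in WT and 32 in Zeb2KO microglia.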

How the results depend on the processing

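Of 350 alternative log2 ratios of the members within a tissue, 305 moved by less than the counting error (the half-width of the counting interval), 45 by more and 0 called values changed sign. The 1 call, Abca1 in microglia, held throughout. With the median of genes of like length taken off, 1 member was called in Zeb2KO KCs against the Nr1h3fl/fl control (Nr1h3, −1.06, against −0.81 and 0 calls in CPM). In CPM 8.07% of all genes considered were called in that comparison. The share with the length median taken off is not given here, so this call cannot be set against it. The tissue with the highest share of positive cells was the same as the tissue with the highest CPM in 4 of 7 members when cells were not thinned, since Nr1h2, Abca1 and Srebf1 were then highest in the deeply sequenced WT CMs, an alternative added after the data were seen, as was leaving out a liver and a spleen cluster with leading genes of endothelium and neutrophils. For the shift common to the tissues, the count of genes called was 0 in edgeR, 378 with DESeq2, 3 of 20164 without a filter, 2 with the Nr1h3fl/fl control and 0 to 1 when a tissue was left out (1 without lung and 1 without spleen). Without the tissue block the fold changes turned to −0.27 for Nr1h3, 0.032 for Abca1 and −0.039 for Mylip. Leaving out 1 tissue gave −0.032 (without brain) to 0.44 for Nr1h3, −0.021 (without lung) to 0.16 for Nr1h2, −0.19 to 0.19 (without brain) for Abca1, −0.21 to 0.12 (without lung) for Abcg1, −0.019 to 0.14 for Mylip, 0.06 to 0.22 for Srebf1 and −0.25 to 0.029 (without brain) for Lpcat3, and the lowest adjusted p of a member under any alternative was 0.544. The mean log2 ratio of Nr1h3 to Nr1h2 was −0.18 without brain (exact sign-flip p = 0.375) and up to 0.67, 0.39 with all barcodes and 0.32 with the Nr1h3fl/fl control (p = 0.875 in both). The cause of these differences was not tested. The labels give no replicate numbers, and WT and Zeb2KO were paired by tissue in the fit reported.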
